A study of Mus musculus with 24 samples.

Results

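The genes that copy DNA and make its building blocks were followed here through the development of the mouse retina. The 36 genes were picked by name from the DNA replication machinery and from nucleotide synthesis, and each was found once among the 45594 genes of the table, 35 of them on an autosome and Pola1 on the X chromosome. Sorted by role they are 11 genes of origin licensing, 6 of helicase activation, 5 of the polymerases and primase, 4 of the sliding clamp and its loader, 4 of nucleotide synthesis, 4 of strand processing and 2 of chromatin assembly. The study sequenced polyadenylated RNA of whole retina from C57/Bl6N mice at embryonic days E11, E12, E14 and E16, at birth (P0) and at postnatal days P2, P4, P6 and P10, then P14, P21 and P28, with 2 libraries at each of the 12 stages. No allele or agent is named in the labels, and nothing in them tells whether both libraries of a stage stem from different animals. P-values below therefore refer to the spread between these libraries, which may be technical. Per the labels, libraries at E11 and E12 were made from 100 ng of RNA and all others from 1 µg.

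Before a cell divides it must copy its genome once and only once. In G1 the origin recognition complex, helped by CDC6 and CDT1, loads the ring-shaped MCM2 to MCM7 helicase onto origins, a step called licensing. In S phase CDC45 and the GINS complex switch the helicase on, polymerase alpha with primase starts each strand, polymerases epsilon and delta extend it on the PCNA clamp, and ribonucleotide reductase and thymidylate synthase keep the deoxynucleotide pools filled. Many of these genes are known targets of the E2F transcription factors. In the retina, multipotent progenitors divide through embryonic life and the first postnatal days, and the neurons and Müller glia they give rise to do not normally divide again.

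Markers of the tissue followed the labels. The summed level of 10 retinal progenitor markers was between 1290 and 3018 CPM (counts scaled to library size by TMM) from E11 to P2, 714 to 801 CPM at P4 and P6 and 385 to 475 CPM at P21 and P28, while 7 photoreceptor markers summed to 48735 to 76266 CPM at P21 and P28, against 12.8 and 19.3 CPM at E11. Library totals ran from 24567532 to 35898879 estimated counts. The 2 libraries at E11 stood apart from each other. There, 8 lens markers summed to 3219 CPM in replicate 1 and 22.6 CPM in replicate 2, 9 red cell markers summed to 3844 and 8541 CPM, and 34 of the 36 replication genes were higher in replicate 2, with a median ratio of 1.26. The part of these cells in the E11 values was not tested, and counts that involve E11 are given below with each of those libraries left out. Lens markers also differed between the 2 libraries of E12, at 227 and 3079 CPM, and of E14, at 62.7 and 2299.8 CPM, stages at which the median ratio of the replication genes was 0.966 and 0.958.

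The replication genes fell together, slowly before birth and steeply in the first postnatal week. With the mean of each gene's highest stage set to 100%, the median gene stood at 100% at E11, 80.6% at E12, 75.4% at E14, 58.4% at E16, 57.5% at P0, 46.0% at P2, 21.8% at P4, 8.54% at P6, 7.36% at P10, 5.77% at P14, 6.91% at P21 and 6.24% at P28. E11 was the highest stage of 31 genes. The exceptions by stage mean were Mcm6 and Lig1, highest at E12, Pold1 and Chaf1a, highest at E14, and Orc1, highest at P2. For Mcm6, Lig1 and Chaf1a the libraries of that stage overlapped with those of E11. Chaf1a had 116 and 125 CPM at E14, against 98.1 and 143 CPM at E11. Not all of these exceptions held when the transcripts of a gene were summed. Orc1 then had 22.7 and 27.6 CPM at E11, against 6.81 and 6.14 CPM at P2. The means of the sums for Mcm6 and Lig1 were 390 and 219 CPM at E11, against 385 and 192 CPM at E12, and that of Lig1 was 218 CPM at E14. These sums were scaled with the factors of the gene table. With sums scaled by TMM factors of their own, 31 genes were highest at E11. At P4 all 36 genes were under 50% of their highest stage, and 26 were under 10% at P28, against 19 at P6. Added together, the 36 genes took 5505 and 7027 CPM at E11, 3478 and 3476 CPM at P0, 703 and 728 CPM at P6 and 371 and 394 CPM at P28. In whole tissue, fewer cells of a type and less RNA per cell cannot be told apart. The summed progenitor markers took another course, with 1290 to 1420 CPM at E11, 2908 to 3018 CPM at E14, 1706 to 1824 CPM at P0, 714 to 772 CPM at P4, 800 to 801 CPM at P6 and 385 to 439 CPM at P28. Markers of some other tissues were lower at P0 than at E11. Here 6 mesenchyme markers summed to 5.24 to 5.99 CPM at P0, against 104 to 182 CPM at E11. Sums of 7 pigment epithelium markers were 16.4 to 19.2 CPM at P0, against 174 to 219 CPM at E11. Those of 9 red cell markers were 7.05 to 7.28 CPM at P0, against 3844 to 8541 CPM at E11. The other way went 7 endothelium markers, with 474 to 508 CPM at P0, against 133 to 176 CPM at E11. Of these, Kdr alone had 492 and 457 CPM at P0. The part of these cells in the course of the replication genes was not tested.

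**Figure D1:**
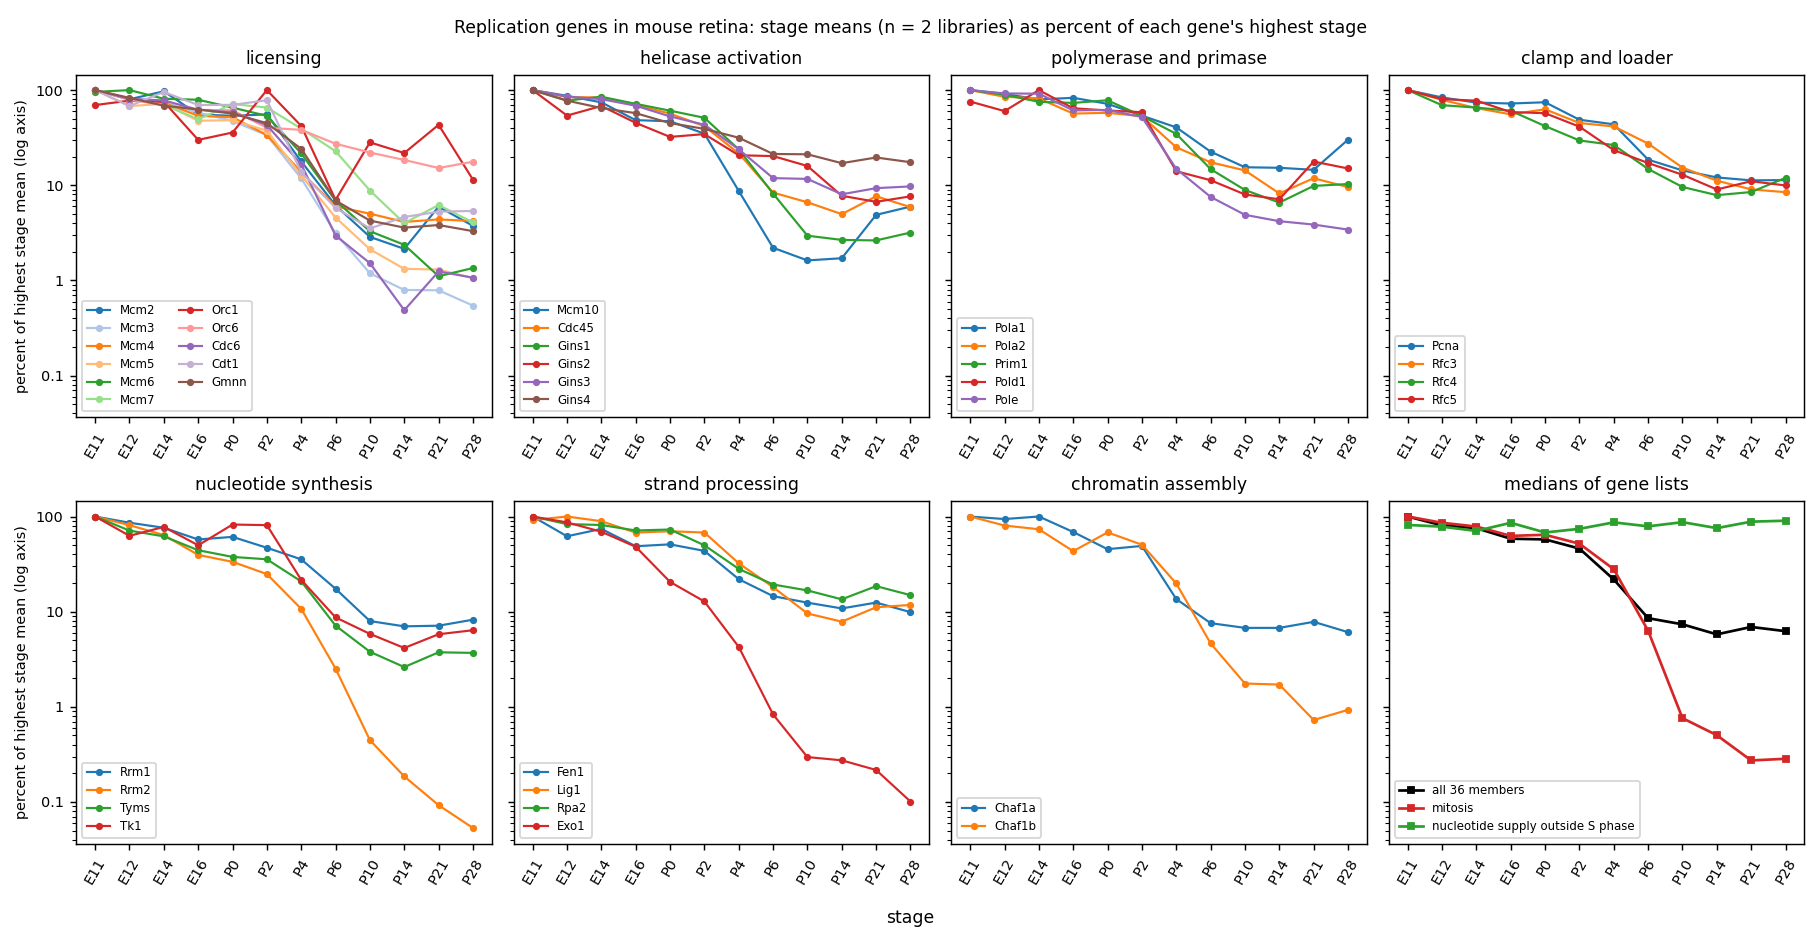
Stage means of the 36 replication genes in 7 panels by role, as a percent of each gene's highest stage mean (log axis, n = 2 libraries per stage), against stage on the horizontal axis. The last panel gives the medians of all 36 genes, of 12 mitosis genes and of 4 genes of nucleotide supply outside S phase: at P28 these medians stood at 6.24%, 0.284% and 90.3%.

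A gene was called higher or lower where edgeR's quasi-likelihood test gave a Benjamini-Hochberg adjusted p under 0.05 over all 21858 genes tested and the level differed at least 2-fold. All 36 replication genes passed the filter on low counts, none had 0 counts in any of the 864 values, and all 36 differed among the 12 stages, as did 77.3% of all genes tested. Orc1 was the exception in firmness. Its adjusted p among the stages was 0.0357 by edgeR's quasi-likelihood test with Benjamini-Hochberg adjustment, and it missed the threshold when 1 of E14 replicate 2, P0 replicate 1, P2 replicate 1, P2 replicate 2, P6 replicate 1, P6 replicate 2, P10 replicate 1 or P28 replicate 2 was left out, which left 35 genes called.

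The broad windows split the course into 3. From E11 to birth, 10 of the 36 genes were called lower at P0 and none higher, against 13.6% of all genes lower and 18.9% higher. All 36 fitted log2 changes were negative, with a median of -0.80 against 0.04 over all genes. The 10 were Mcm3, Mcm5, Mcm10, Gins2, Gins4, Rfc4, Rrm2, Tyms, Exo1 and Chaf1a, of which Mcm3, Mcm5, Mcm10 and Chaf1a were not called without E11 replicate 2 and Gins4 was not called without P0 replicate 1. The number called lower was 15 without E11 replicate 1, 6 without E11 replicate 2 and 5 with scaling by library size alone. From birth to P6, 34 genes were called lower at P6 and none higher, against 7.83% of all genes lower and 8.83% higher. In all 36 genes both P6 libraries were under both P0 libraries. The share of all genes separated in this way is not given here. The median log2 change was -2.42 against -0.01 over all genes, and the genes not called were Gins2 and Orc1. Between P6 and P28, 14 genes were called lower at P28 and 1 higher, against 10.5% of all genes lower and 24.7% of all genes in either direction, with a median log2 change of -0.71 against 0.04 over all genes. The falls were those of Mcm3, Mcm5, Mcm6, Mcm7, Cdc6, Gmnn, Gins1, Gins2, Pole, Rfc3, Rrm1, Rrm2, Exo1 and Chaf1b, and the rise was that of Mcm10. Without P28 replicate 1 Gins1 was not called, and without P6 replicate 2 Gmnn was not.

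**Figure D2:**
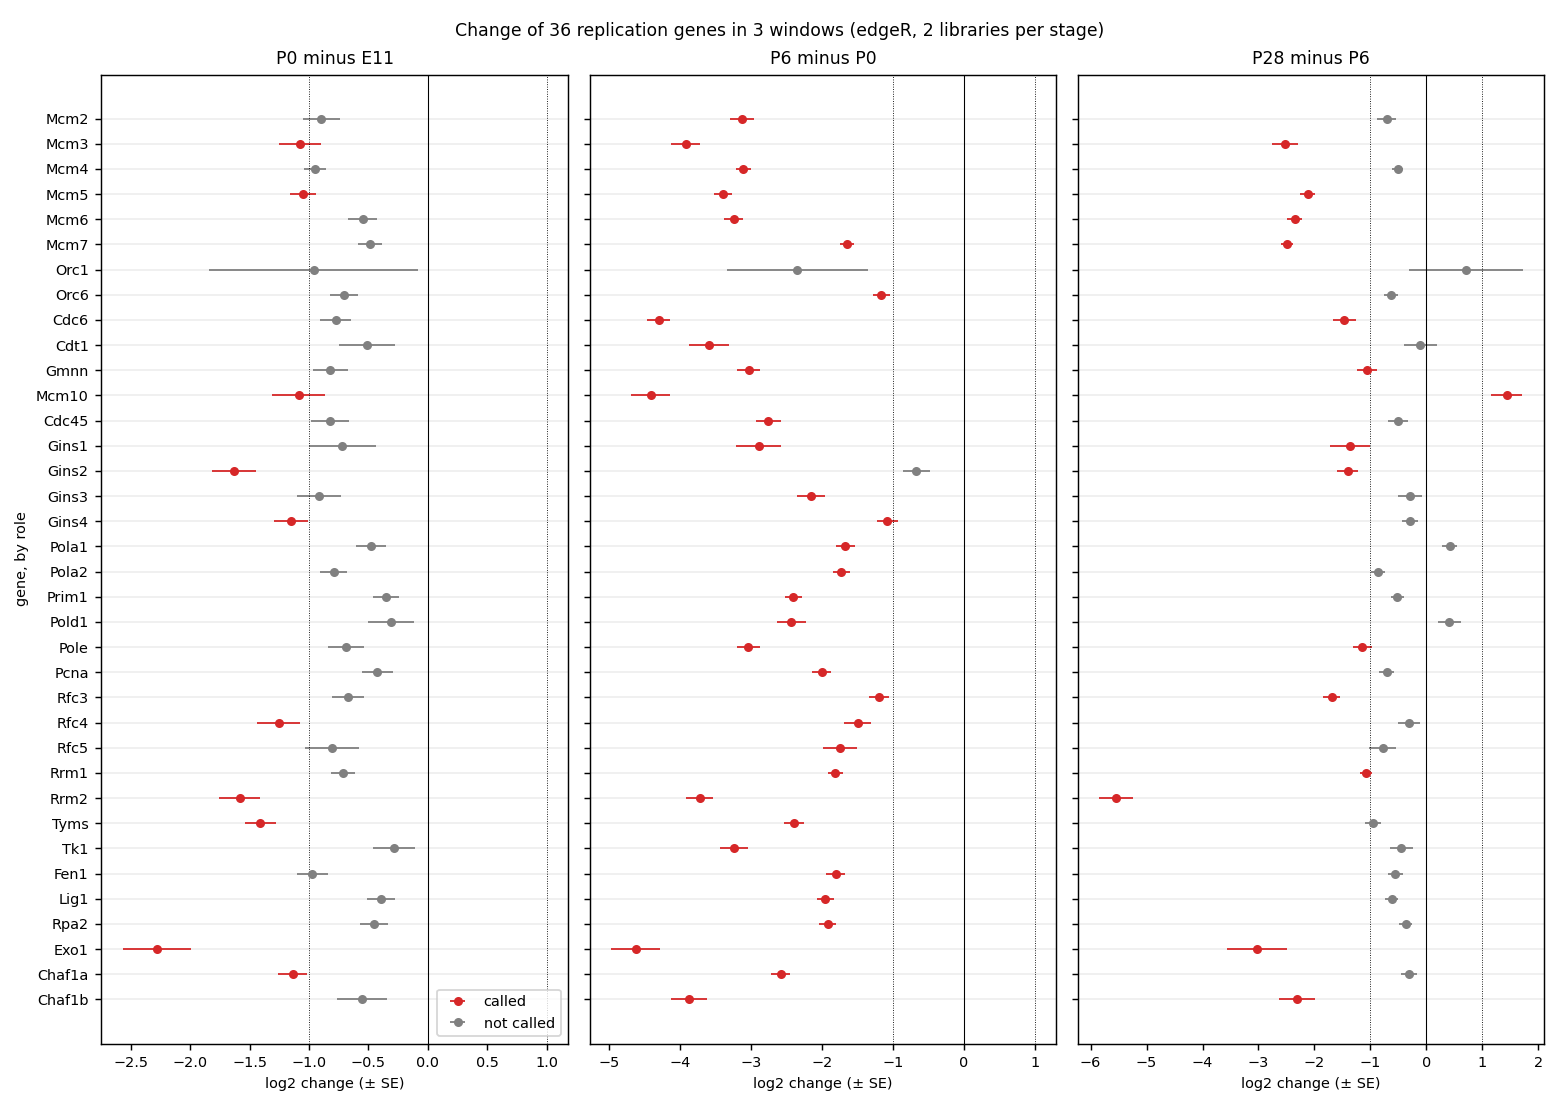
Log2 change of each of the 36 replication genes (rows, by role) in 3 windows, P0 minus E11, P6 minus P0 and P28 minus P6, with its standard error from edgeR (2 libraries per stage). Red marks genes called, grey those not called, and dotted lines a 2-fold difference: 10, 34 and 15 genes are red in the 3 panels.

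Between neighbouring stages the calls gathered at P4 and P6. Before birth no replication gene was called at E12 against E11 (3.92% of all genes lower, 4.08% higher), at E14 against E12 (3.38% lower, 7.52% higher) or at E16 against E14 (1.67% lower, 5.47% higher), and DESeq2 called none in these steps either. At an unadjusted p under 0.05 in edgeR's quasi-likelihood test, 15, 3 and 18 of the 36 replication genes passed in those 3 steps, against 35.2%, 35.7% and 29.1% of all genes. At P0 against E16 only Exo1 was called, lower (3.03% of all genes lower, 4.75% higher). None was called at P2 against P0 (0.961% lower, 3.02% higher) by edgeR or DESeq2, with 17 of the 36 at an unadjusted p under 0.05, against 30.6% of all genes. Then 18 genes were lower at P4 than at P2 (7.28% of all genes) and 20 lower at P6 than at P4 (1.54%), and none was higher in either step (3.97% and 1.08%). These steps share libraries, so their lists are not independent.

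After P6 the falls grew fewer. At P10 10 genes were lower than at P6 (3.28% of all genes lower, 4.59% higher), and without P6 replicate 2 the number was 6. At P14 4 genes were lower than at P10, namely Cdc6, Rrm2, Mcm7 and Gins2 (1.08% lower, 3.45% higher), of which 2 were left without P10 replicate 2. P21 differed in direction. There, 4 genes, Mcm10, Mcm2, Cdc6 and Pold1, were higher than at P14 (4.31% of all genes higher) and 2, Chaf1b and Mcm6, lower (5.07%), shares near those of all genes for the falls. At P28 against P21, 1 gene, Pola1, was higher (0.339%) and none lower (0.549%), with 9 of the 36 at an unadjusted p under 0.05 in edgeR's quasi-likelihood test, against 19.9% of all genes, and none lower by DESeq2.

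**Figure D3:**
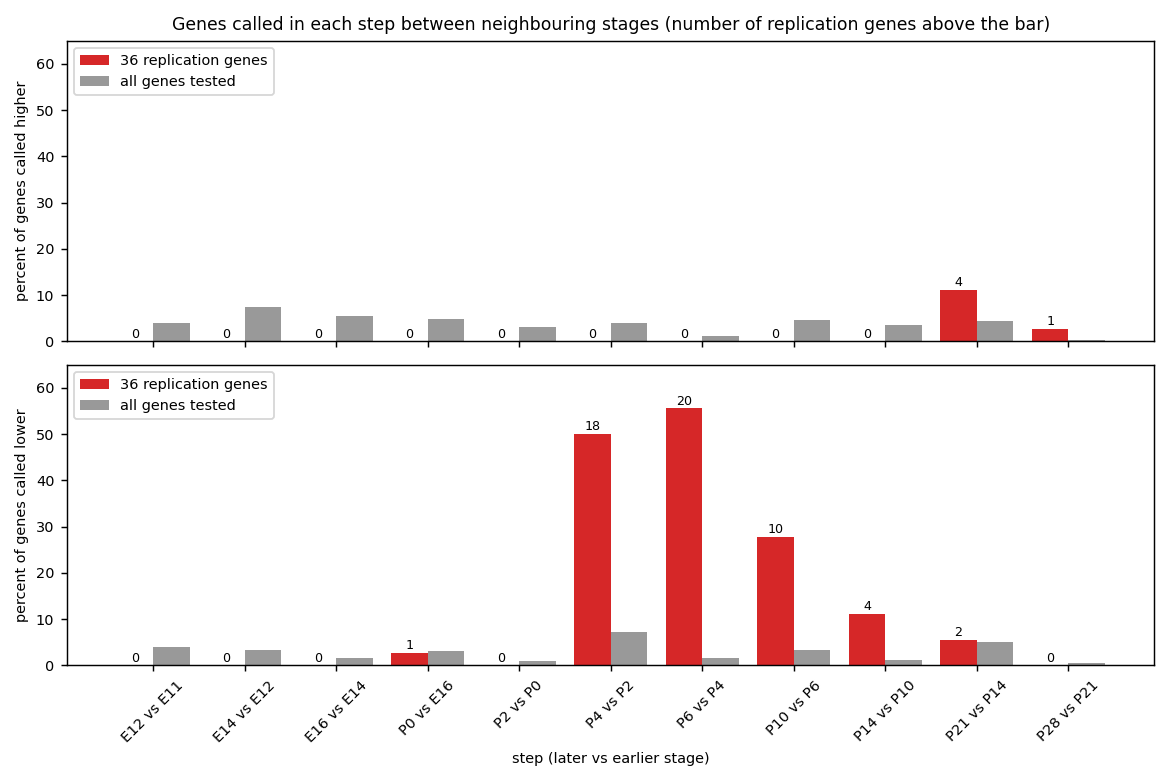
Percent of genes called higher (top) and lower (bottom) at the later of 2 neighbouring stages, for the 36 replication genes (red, with their number above the bar) and for all 21858 genes tested (grey). The red bars reach 18 and 20 genes lower at P4 against P2 and P6 against P4.

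Of the 10 licensing genes called lower at P6 than at P0, Cdc6 fell most and Orc6 least. Cdc6, whose protein loads the helicase with ORC, had 63.0 and 82.7 CPM at E11, 62.2 and 55.7 at E12, 57.0 and 56.5 at E14, 43.6 and 47.1 at E16, 46.1 and 39.0 at P0 and 31.8 and 30.7 at P2. It went on with 12.198 and 11.98 CPM at P4, 2.07 and 2.25 at P6, 1.06 and 1.15 at P10, 0.451 and 0.258 at P14, 0.864 and 0.944 at P21 and 0.718 and 0.841 at P28. Both libraries of every stage from P4 on lay below all earlier ones, and P14 was the lowest stage. Its log2 change at P6 against P0 was -4.30 (SE 0.161, adjusted p = 3.52e-12) in edgeR's quasi-likelihood test with Benjamini-Hochberg adjustment. At P6 against P4 it had the most negative change of the replication genes called in that step, at -2.48 (SE 0.158, adjusted p = 3.67e-08) by edgeR with the same adjustment. A further fall at P14 against P10 was called at a log2 change of -1.63.

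Orc6, the smallest subunit of the origin recognition complex, kept more of its level. Its values were 72.7 and 88.0 CPM at E11, 64.8 and 63.0 at E12, 59.3 and 52.2 at E14, 47.0 and 52.7 at E16, 51.1 and 47.4 at P0 and 32.0 and 32.6 at P2. Later it had 31.1 and 30.4 CPM at P4, 22.7 and 21.19 at P6, 15.3 and 20.2 at P10, 14.5 and 15.1 at P14, 12.6 and 11.8 at P21 and 13.8 and 14.6 at P28. The decline was gradual, with no neighbouring pair of stages called, and the log2 change at P6 against P0 was -1.17 (SE 0.123, adjusted p = 8.65e-07) in edgeR's quasi-likelihood test. At P28 it stood at 17.7% of its highest stage. Orc1, the ATPase subunit that binds chromatin early in the cell cycle, gave different answers in the 2 deposited tables. In the gene table it had 1.40 and 1.39 CPM at P6, against 5.27 and 8.95 CPM at P0, with libraries of one stage far apart elsewhere, as in the 15.0 and 1.67 CPM of P4, and the change was not called (log2 change -2.35 (SE 0.993, adjusted p = 0.0758) in edgeR). Summed over its transcripts it had 1.58 and 1.60 CPM at P6, against 10.3 and 6.87 CPM at P0, and was called with a log2 change of -2.42 and adjusted p = 4.08e-08 in edgeR's quasi-likelihood test.

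The 6 MCM genes, which encode the subunits of one ring, did not keep one ratio to each other. All 6 were called lower at P6 than at P0, by log2 changes from -3.92 for Mcm3 to -1.65 for Mcm7. Mcm7 had 88.4 and 87.7 CPM at P6, against 275 and 276 CPM at P0, whereas Mcm3 had 7.41 and 12.05 CPM at P6, against 154 and 141 CPM at P0. Mcm7 then lost more than most, with 13.9 and 17.5 CPM at P28 and a log2 change of -2.49 against P6, called in edgeR. Mcm4 changed less in that window, with 13.1 and 12.6 CPM at P28, against 18.1 and 18.7 CPM at P6, a log2 change of -0.51 (SE 0.10001, adjusted p = 0.000416) that missed the 2-fold threshold. Per transcript length, the mean levels at P28 (SD, n = 2) were 17.1 ± 2.08 TPM (counts scaled for transcript length and library size) for Mcm7, 7.10 ± 0.281 TPM for Mcm4, 5.22 ± 0.556 TPM for Mcm2, 4.72 ± 0.1002 TPM for Mcm6, 2.21 ± 0.0692 TPM for Mcm5 and 1.59 ± 0.0658 TPM for Mcm3, with Mcm2 and Mcm6 within their spread of each other. At P0 they were 312 ± 3.88 TPM for Mcm7, 243 ± 7.69 TPM for Mcm6, 140.3 ± 11.004 TPM for Mcm3, 100.5 ± 4.97 TPM for Mcm5, 92.9 ± 12.9 TPM for Mcm2 and 92.0 ± 0.629 TPM for Mcm4, with Mcm2 within its spread of both Mcm5 and Mcm4. Mcm3 was thus the lowest of the 6 at P28 and the third highest at P0.

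CDT1 brings the helicase to origins, and geminin, the product of Gmnn, blocks it once S phase has begun. Cdt1 made the steepest fall of all replication genes at P4, with 6.08 and 6.26 CPM at P4, against 35.8 and 34.3 CPM at P2, a log2 change of -2.51 (SE 0.257, adjusted p = 2.58e-06) in edgeR's quasi-likelihood test. The inhibitor followed a gentler path in that step. Gmnn had 16.21 and 17.0 CPM at P4, against 30.4 and 31.4 CPM at P2, which is under the 2-fold threshold at a log2 change of -0.90, and 4.26 and 5.24 CPM at P6. Over the whole of P6 against P0 the log2 changes were -3.59 (SE 0.276) for Cdt1 and -3.03 (SE 0.163) for Gmnn, both called, and the difference between the 2 genes was not tested.

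Because these genes moved together, their promoter letters were read from RefSeq (GRCm38.p6), in windows of 300 bases, 250 before and 50 from the annotated start. Windows were found for 29 of the 36 symbols, 33 windows in all, and Mcm4, Gmnn, Exo1, Gins1, Gins2, Gins4 and Pole had none. An E2F-type word, any of TTTGGCGC, TTTCCCGC, TTTCGCGC and TTTGCCGC on either strand, was present in 12 of the 33 windows (36.4%) and in 744 of all 32851 windows (2.26%). The words can overlap on opposite strands, and a match is a description of letters, not a shown binding site. CCAAT on either strand was in 57.6% of the replication windows and 37.4% of all windows, and TTTGAA, the core of the cell cycle element CHR, in 12.12% and 17.9%. The 5 genes with more than 1 E2F-type match are printed here, 5′ to 3′ on the gene's strand with the matches in capitals, followed by Rrm2, the gene with the largest fall over the whole course, whose window has no E2F-type word.
Mcm3: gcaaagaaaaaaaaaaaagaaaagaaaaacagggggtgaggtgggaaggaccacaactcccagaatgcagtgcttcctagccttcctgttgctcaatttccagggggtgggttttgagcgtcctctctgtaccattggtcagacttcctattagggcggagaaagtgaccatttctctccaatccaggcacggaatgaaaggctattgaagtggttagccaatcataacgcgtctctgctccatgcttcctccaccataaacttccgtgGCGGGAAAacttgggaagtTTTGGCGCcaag
Mcm5: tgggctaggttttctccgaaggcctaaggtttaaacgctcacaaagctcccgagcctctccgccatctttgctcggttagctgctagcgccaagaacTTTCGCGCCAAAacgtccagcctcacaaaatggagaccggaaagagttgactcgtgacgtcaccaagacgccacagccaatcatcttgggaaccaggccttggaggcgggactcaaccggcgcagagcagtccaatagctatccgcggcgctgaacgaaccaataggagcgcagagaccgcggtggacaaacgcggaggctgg
Mcm6: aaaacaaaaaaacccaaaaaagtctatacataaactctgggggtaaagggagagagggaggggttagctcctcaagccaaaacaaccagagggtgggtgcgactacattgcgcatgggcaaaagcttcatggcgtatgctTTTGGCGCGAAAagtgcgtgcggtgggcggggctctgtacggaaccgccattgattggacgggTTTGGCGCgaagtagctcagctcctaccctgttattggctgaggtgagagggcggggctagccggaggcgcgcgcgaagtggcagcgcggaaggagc
Mcm7: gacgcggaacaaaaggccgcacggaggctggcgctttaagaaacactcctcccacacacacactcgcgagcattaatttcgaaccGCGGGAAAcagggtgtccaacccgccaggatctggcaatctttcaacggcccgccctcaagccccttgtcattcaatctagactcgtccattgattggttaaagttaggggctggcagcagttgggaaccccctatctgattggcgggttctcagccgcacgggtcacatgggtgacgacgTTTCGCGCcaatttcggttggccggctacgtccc
Rfc3: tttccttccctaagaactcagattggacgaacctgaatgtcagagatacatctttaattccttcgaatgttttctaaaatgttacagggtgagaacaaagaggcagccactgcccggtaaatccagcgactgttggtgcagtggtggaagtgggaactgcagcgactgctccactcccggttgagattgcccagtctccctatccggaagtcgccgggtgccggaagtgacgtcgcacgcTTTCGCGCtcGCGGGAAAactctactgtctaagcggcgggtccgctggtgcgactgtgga
Rrm2: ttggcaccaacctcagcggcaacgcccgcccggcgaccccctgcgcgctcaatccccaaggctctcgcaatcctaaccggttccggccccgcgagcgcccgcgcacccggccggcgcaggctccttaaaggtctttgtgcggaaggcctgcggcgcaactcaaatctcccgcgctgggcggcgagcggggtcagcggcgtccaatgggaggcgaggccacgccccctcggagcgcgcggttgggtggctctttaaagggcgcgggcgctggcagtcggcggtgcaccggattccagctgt
They lie at chr1:20820263-20820562 (minus strand), chr8:75109259-75109558 (plus), chr1:128359656-128359955 (minus), chr5:138171834-138172133 (minus), chr5:151651159-151651458 (minus) and chr12:24708004-24708303 (plus). Counted from 0 at the start, the Mcm5 words begin at -153 and -149 and so overlap into one run, as do the Mcm6 words at -110 and -106, and Mcm6 has a further word at -47. The same kind of word is found in genes with steep and with mild falls. Mcm3, Mcm5 and Mcm6 had log2 changes of -3.92, -3.40 and -3.24 at P6 against P0, and Mcm7 and Rfc3 had -1.65 and -1.20.

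Genes that turn the loaded helicase on ranged as widely. Mcm10, whose protein helps the active helicase form and ties polymerase alpha to it, had 87.9 and 109.8 CPM at E11, 95.4 and 76.7 at E12, 77.4 and 69.6 at E14, 47.2 and 48.4 at E16, 49.3 and 43.8 at P0 and 36.4 and 32.6 at P2. Afterwards it had 9.79 and 7.45 CPM at P4, 2.35 and 2.002 at P6, 1.96 and 1.25 at P10, 2.28 and 1.10 at P14, 3.66 and 6.001 at P21 and 5.74 and 6.06 at P28. The lowest values came at P10 and P14, and all 4 libraries of P21 and P28 were above the 6 of P6, P10 and P14. At P6 against P0 the log2 change was -4.42 (SE 0.273, adjusted p = 1.18e-09), and at P28 against P6 Mcm10 was the only replication gene called higher, at 1.44 (SE 0.276, adjusted p = 0.00036), both in edgeR's quasi-likelihood test with Benjamini-Hochberg adjustment. P28 was still at 5.97% of the E11 level.

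Gins2, which encodes one of the 4 GINS subunits, had the smallest fall of the 36 between birth and P6. It had 212 and 274 CPM at E11, 112 and 149.8 at E12, 165 and 165 at E14, 111 and 109 at E16, 84.7 and 71.7 at P0 and 88.0 and 79.5 at P2 in the gene table, followed by 48.6 and 51.8 CPM at P4, 52.1 and 46.3 at P6, 32.8 and 44.6 at P10, 18.8 and 18.8 at P14, 13.6 and 18.9 at P21 and 21.3 and 15.8 at P28. The level dropped most before birth and again after P10. Its change at P6 against P0 passed the adjusted p but not the 2-fold threshold, at -0.67 (SE 0.185, adjusted p = 0.00845) in edgeR, and the fall at P0 against E11 was called at -1.63. The early fall was found in one table only. Summed over transcripts Gins2 had 88.5 and 76.0 CPM at P0, against 72.9 and 92.8 CPM at E11, a log2 change of -0.01 (adjusted p = 0.962 in edgeR). Transcripts annotated as coding made up 16.23% of that sum at E11, 2.76% at P0 and 5.69% at P28, and the gene overlaps coding genes on the opposite strand, Gse1 among them. For the other GINS genes the log2 changes at P6 against P0 were -2.89 for Gins1, -2.15 for Gins3 and -1.08 for Gins4, all called, although Gins4 was at -0.82 and not called without P0 replicate 2. Cdc45, the partner of GINS at the helicase, had 6.198 and 4.71 CPM at P6, against 32.1 and 41.6 CPM at P0, a log2 change of -2.76 that was called.

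Among the polymerases, the leading-strand enzyme fell most. Pole, the catalytic subunit of polymerase epsilon, had 139 and 161 CPM at E11, 145 and 132 at E12, 144 and 131 at E14, 94.99 and 88.5 at E16, 92.1 and 93.6 at P0 and 79.8 and 76.6 at P2. From P4 its values were 22.6 and 22.1 CPM at P4, 12.7 and 9.95 at P6, 6.80 and 7.86 at P10, 5.86 and 6.71 at P14, 5.65 and 5.93 at P21 and 3.88 and 6.38 at P28. The step between P2 and P4 was the largest, and the groups on its 2 sides did not overlap. At P6 against P0 Pole changed by -3.04 (SE 0.167, adjusted p = 2.89e-10) and at P28 against P6 by -1.14, both called in edgeR, the second not without P6 replicate 1 or without P28 replicate 1. Pold1, the catalytic subunit of polymerase delta, dropped in one step, with 12.7 and 16.6 CPM at P4, against 59.1 and 63.2 CPM at P2, a log2 change of -2.06 (SE 0.204, adjusted p = 1.94e-06) in edgeR's quasi-likelihood test. Only Cdt1 fell further in that step.

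Pola1, the catalytic subunit of polymerase alpha, fell least of the 5. It had 116 and 108 CPM at E11, 104 and 101 at E12, 94.3 and 84.7 at E14, 81.9 and 104 at E16, 73.0 and 88.0 at P0 and 59.4 and 61.4 at P2. The postnatal values were 47.0 and 44.1 CPM at P4, 25.5 and 25.1 at P6, 17.1 and 17.6 at P10, 16.8 and 17.4 at P14, 14.09 and 18.5 at P21 and 33.4 and 34.1 at P28. In the gene table both P28 libraries lay above every library from P6 to P21. There, P28 stood at 30.1% of the highest stage, the largest share of the 36 genes. Summed over its transcripts Pola1 had 17.7 and 15.6 CPM at P28, against 25.7 and 26.7 CPM at P6 and 127 and 114 CPM at E11. The log2 change of Pola1 in the gene table at P6 against P0 was -1.67 (SE 0.130, adjusted p = 2.1e-08) in edgeR. Pola2 and Prim1, its B subunit and the primase that makes the RNA primer, changed by -1.73 and -2.40 in the same window, both called. None of the 5 was called at P0 against E11.

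The clamp was the replication gene with the highest level per length at birth. Pcna, which rings the DNA and holds the polymerases on it, had 88.8 ± 5.13 TPM at P28, against 606 ± 28.9 TPM at P0 (SD, n = 2). In CPM it had 407 and 519.8 CPM at E11, 391 and 384 at E12, 375 and 309 at E14, 310.1 and 359.6 at E16, 329 and 362 at P0 and 234 and 218 at P2. It continued at 209.6 and 195 CPM at P4, 85.0 and 87.2 at P6, 58.7 and 74.0 at P10, 55.5 and 56.4 at P14, 54.2 and 50.1 at P21 and 49.8 and 55.2 at P28. Unlike Pole, it changed little between P2 and P4 and dropped between P4 and P6. That drop was called at a log2 change of -1.23, and the change at P6 against P0 was -2.004 (SE 0.133, adjusted p = 2.77e-09) in edgeR's quasi-likelihood test. From P10 on the libraries stayed between 49.8 and 74.0 CPM.

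Rfc3 is a subunit of replication factor C, which opens and loads the clamp. Its levels were 69.9 and 92.7 CPM at E11, 65.3 and 63.0 at E12, 52.6 and 52.8 at E14, 45.1 and 45.4 at E16, 51.8 and 50.4 at P0 and 35.3 and 38.0 at P2. They then ran 35.3 and 32.1 CPM at P4, 21.6 and 23.0 at P6, 10.5 and 14.4 at P10, 9.24 and 8.94 at P14, 6.78 and 7.92 at P21 and 7.26 and 6.496 at P28. At P6 against P0 Rfc3 had the smallest fall of the group, at -1.20 (SE 0.138, adjusted p = 2.45e-06) in edgeR, with Rfc4 and Rfc5 at -1.497 and -1.74, all called. It was the one gene of the 4 called lower again at P28 against P6, at -1.69. Rfc4 was the one called at P0 against E11, at -1.26. Of the summed Rfc3 transcripts, those annotated as coding made up 7.70% at E11, 4.06% at P0, 4.99% at P6 and 17.3% at P28. The Rfc3 levels above are for the whole gene.

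Nucleotide synthesis held the largest fall of all. Rrm2, on chromosome 12 at chr12:24708241-24714146 (GRCm38), encodes the small subunit of ribonucleotide reductase that is made in S phase. It had 341 and 527 CPM at E11, 373 and 330.1 at E12, 285 and 269 at E14, 169 and 173 at E16, 145 and 144 at P0 and 106 and 109.8 at P2. It then had 46.3 and 46.6 CPM at P4, 9.69 and 12.199 at P6, 1.60 and 2.27 at P10, 0.933 and 0.678 at P14, 0.465 and 0.337 at P21 and 0.144 and 0.319 at P28. From E14 on both libraries of each stage were below both of the stage before it, and at P28 Rrm2 stood at 0.0533% of E11. The log2 changes were -1.58 (SE 0.171, adjusted p = 5.79e-07) at P0 against E11, -3.73 at P6 against P0 and -5.54 (SE 0.302, adjusted p = 2.08e-10) at P28 against P6, all called in edgeR's quasi-likelihood test. It was also called at P10 against P6, at -2.50, and at P14 against P10, at -1.26, the last not without P10 replicate 2 or without P14 replicate 2.

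Its partner, the large subunit Rrm1, kept more of its level. Rrm1 had 451 and 526 CPM at E11, 408 and 433 at E12, 387 and 357 at E14, 246 and 314 at E16, 293 and 303 at P0 and 233 and 226 at P2. Thereafter it had 176 and 170.3 CPM at P4, 82.2 and 87.8 at P6, 39.2 and 38.7 at P10, 34.2 and 34.3 at P14, 34.0 and 35.6 at P21 and 39.1 and 41.3 at P28. From P10 on all 8 libraries lay between 34.0 and 41.3 CPM. Its log2 changes were -1.81 (SE 0.103, adjusted p = 4.53e-10) at P6 against P0 and -1.08 at P28 against P6, both called in edgeR. Per transcript length, the mean levels at P28 were 0.236 ± 0.104 TPM for Rrm2 and 19.5 ± 0.583 TPM for Rrm1 (SD, n = 2). At P0 the means were 168 ± 3.64 TPM for Rrm2 and 155 ± 2.09 TPM for Rrm1. The subunits thus stood far apart in the mature retina and near each other at birth. Before birth Rrm2 was the higher, at 359 ± 85.4 TPM at E11 and 285 ± 6.56 TPM at E14. Rrm1 had 183 ± 7.09 TPM at E11 and 172 ± 6.85 TPM at E14.

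Tyms, which makes thymidylate from deoxyuridylate, and Tk1, the S phase thymidine kinase, lay between these. Tyms had 18.8 and 20.5 CPM at P6, against 100.4 and 107 CPM at P0, a called log2 change of -2.40. Tk1 had 6.102 and 8.07 CPM at P6, against 75.3 and 58.9 CPM at P0, a called change of -3.24. Both levelled off at P10 or later, with 9.70 and 10.6 CPM for Tyms and 4.48 and 5.92 CPM for Tk1 at P28. The early fall of Tyms, called at -1.41 at P0 against E11 in the gene table, was -0.72 and under the 2-fold threshold in the transcript sums.

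A separate set of enzymes supplies deoxynucleotides outside S phase, for mitochondrial DNA and repair. None of the 4 genes of this list was called at P0 against E11, at P6 against P0 or at P28 against P6. Of all genes, 13.6% were called lower and 18.9% higher in the first window, and 7.83% and 8.83% in the second. In the third, 24.7% were called in either direction. Most genes were thus not called in these windows either, and the lack of calls is not particular to this list. Rrm2b, the small reductase subunit that takes the place of RRM2 in cells that do not divide, had 24.9 and 25.5 CPM at P6, against 14.9 and 25.3 CPM at P0, and 34.9 and 34.6 CPM at P28. Its values overlapped between P6 and P0 and were above all P6 values at P28 (log2 change at P28 against P6 0.46 (SE 0.172, adjusted p = 0.0339) in edgeR, under 2-fold). Tk2 and Dguok, the mitochondrial deoxynucleoside kinases, had log2 changes of -0.08 and 0.38 at P6 against P0, and Samhd1, which breaks deoxynucleotides down, had -0.41. Over all stages 2 of the 4 were called, against 77.3% of all genes.

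**Figure D4:**
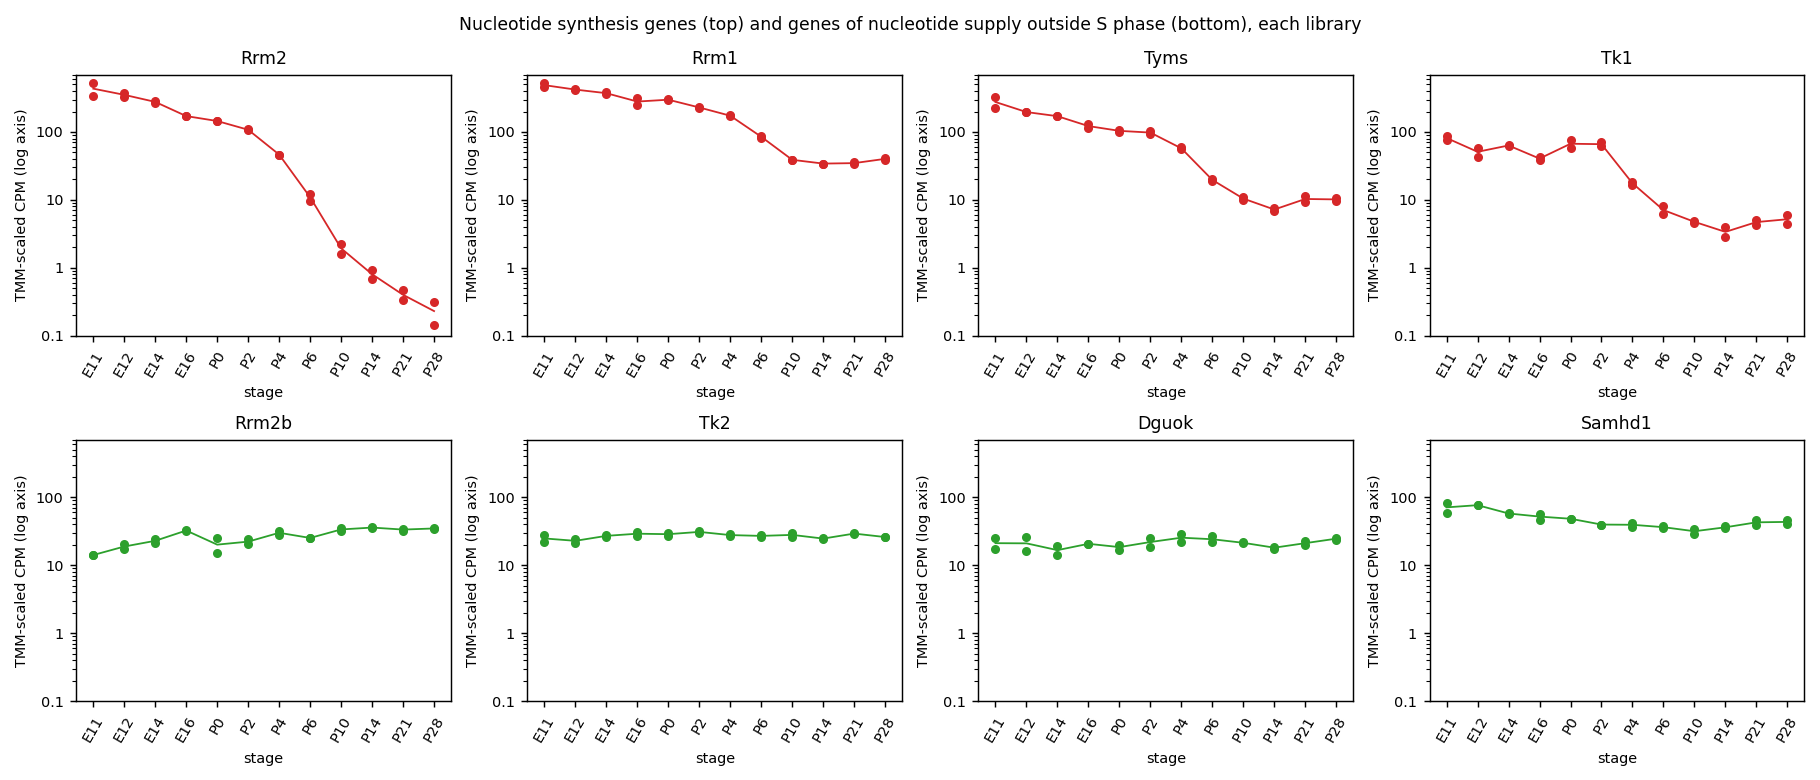
TMM-scaled CPM (log axis) in each of the 24 libraries (points) with the stage mean (line) for 4 nucleotide synthesis genes (top) and 4 genes of nucleotide supply outside S phase (bottom). Rrm2 descends to 0.144 and 0.319 CPM at P28, while Rrm2b is at 34.9 and 34.6 CPM there.

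In strand processing, Exo1 stood apart from the other 3 genes. Exo1, on chromosome 1 at chr1:175880581-175913489 (GRCm38), encodes an exonuclease of mismatch repair and end resection. In the gene table it had 258 and 341 CPM at E11, 273 and 248 at E12, 211 and 203 at E14, 136 and 152 at E16, 51.9 and 71.3 at P0 and 39.2 and 37.5 at P2, then 12.4 and 13.2 CPM at P4, 2.80 and 2.19 at P6, 1.32 and 0.460 at P10, 1.26 and 0.387 at P14, 1.06 and 0.236 at P21 and 0.316 and 0.290 at P28. All libraries from P4 on were below all earlier ones. The log2 change at P6 against P0 was the most negative of the 36 genes, at -4.63 (SE 0.347, adjusted p = 1.33e-08) in edgeR's quasi-likelihood test, and the sum of transcripts gave -4.25, also called. Embryonic changes were less firm. At P0 against E11 the gene table gave -2.28 and the transcript sum -1.14, both called. At P0 against E16 the gene table's -1.23 was called, while the transcript sum's -0.30, DESeq2 and the fit without P0 replicate 1 gave no call. The late falls were called at P28 against P6 (-3.02 in the gene table, -1.80 in the transcript sums) and at P10 against P6 (-1.48), which was not called without P6 replicate 1, P6 replicate 2 or P10 replicate 2.

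Fen1, the nuclease that trims flaps from Okazaki fragments, fell less and levelled off. It had 103 and 139 CPM at E11, 70.1 and 79.4 at E12, 89.8 and 88.8 at E14, 58.8 and 58.7 at E16, 62.5 and 60.4 at P0 and 54.1 and 50.8 at P2. Later values were 24.9 and 28.03 CPM at P4, 16.3 and 18.8 at P6, 13.9 and 16.05 at P10, 13.5 and 12.6 at P14, 15.2 and 14.8 at P21 and 10.9 and 12.9 at P28. From P6 on they stayed between 10.9 and 18.8 CPM. At P6 against P0 Fen1 changed by -1.81 (SE 0.134, adjusted p = 1.12e-08) in edgeR. Lig1, the ligase that seals the fragments, and Rpa2, a subunit of the single-strand binding protein, changed by -1.95 and -1.92, both called. None of these 3 was called at P28 against P6.

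The 2 large subunits of chromatin assembly factor 1, which places histones on new DNA, separated late. Chaf1b had 67.2 and 75.7 CPM at E11, 52.5 and 62.4 at E12, 56.3 and 48.7 at E14, 33.7 and 28.07 at E16, 58.9 and 38.4 at P0 and 36.6 and 35.6 at P2. Then it had 15.8 and 12.5 CPM at P4, 3.21 and 3.42 at P6, 0.866 and 1.64 at P10, 0.901 and 1.55 at P14, 0.432 and 0.607 at P21 and 0.631 and 0.696 at P28. Each of P4, P6 and P10 lay below the stage before it without overlap, and Chaf1b was under 1 CPM in both libraries at P21 and P28. Chaf1a had 98.1 and 143 CPM at E11, 116 and 111 at E12, 116 and 125 at E14, 84.7 and 81.0 at E16, 55.0 and 54.3 at P0 and 60.1 and 58.2 at P2. Its later levels were 16.4 and 16.3 CPM at P4, 9.25 and 8.995 at P6, 8.02 and 8.25 at P10, 8.66 and 7.62 at P14, 9.67 and 9.17 at P21 and 7.69 and 6.99 at P28, nearly level from P6 on. At P6 against P0 the log2 changes were -3.87 (SE 0.251, adjusted p = 2.03e-09) for Chaf1b and -2.58 (SE 0.135, adjusted p = 1.61e-10) for Chaf1a in edgeR's quasi-likelihood test. At P28 against P6 Chaf1b fell again, at -2.31, and Chaf1a, at -0.31, was not called. The difference between these subunits was not tested.

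Levels at the end of the course were low but uneven. At P28 the 4 genes under 1% of their highest stage were Rrm2, Exo1, Mcm3 and Chaf1b, at 0.0533%, 0.101%, 0.543% and 0.929%. The highest shares were those of Pola1 at 30.1%, Orc6 at 17.7%, Gins4 at 17.5%, Pold1 at 15.0% and Rpa2 at 14.9%. By role, the median share at P28 was 3.74% for licensing, 3.51% for chromatin assembly, 5.03% for nucleotide synthesis, 6.81% for helicase activation, 10.3% for polymerases and primase, 10.6% for clamp and loader and 10.8% for strand processing. P14 was the lowest stage of 17 genes, P28 of 9 and P21 of 7. All these shares and stages are those of the gene table. Summed over transcripts, Exo1 had 0.910 and 0.661 CPM at P28, against 101 and 125 CPM at E11, a larger share. For Pola1 the sums were 17.7 and 15.6 CPM at P28, against 127 and 114 CPM at E11, a smaller share.

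The late increases were small in level and depended partly on the table used. Mcm10 had 3.66 and 6.001 CPM at P21, against 2.28 and 1.10 CPM at P14 (log2 change 1.51 (SE 0.293, adjusted p = 0.000979) in edgeR), and the transcript sums gave 5.26 and 6.71 CPM at P21, against 1.68 and 1.30 CPM at P14 (log2 change 1.97, called). Pold1 had 16.7 and 20.3 CPM at P21, against 7.63 and 7.23 CPM at P14, with log2 changes of 1.32 in the gene table and 1.10 in the sums, both called. Both genes had their 2 libraries of P21 above their 2 of P14 in either table. Cdc6 had 0.864 and 0.944 CPM at P21, against 0.451 and 0.258 CPM at P14, called in both tables (1.34 and 1.48) but not without P14 replicate 2.

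The other late changes did not hold in the sums. Mcm2 had 14.19 and 15.7 CPM at P21, against 5.41 and 5.39 CPM at P14, a called log2 change of 1.47 in the gene table, and 0.50, under 2-fold, in the transcript sums. Pola1 had 33.4 and 34.1 CPM at P28, against 14.09 and 18.5 CPM at P21, called at 1.05 (SE 0.131, adjusted p = 0.000361) in edgeR's quasi-likelihood test, while the sums gave 17.7 and 15.6 CPM at P28, against 13.6 and 12.7 CPM at P21, and a log2 change of 0.35, not called. In the window of P28 against P6 the sign for Pola1 itself depended on the table, at 0.42 in the gene table and -0.70 in the sums. Of the falls at P21 against P14, Chaf1b (-1.23) and Mcm6 (-1.10) were at -0.94 and -0.76 in the sums, neither called, and neither was called without P21 replicate 1. Over all 36 genes, 23 had a positive log2 change at P21 against P14, with a median of 0.19 against -0.01 over all genes.

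**Figure D5:**
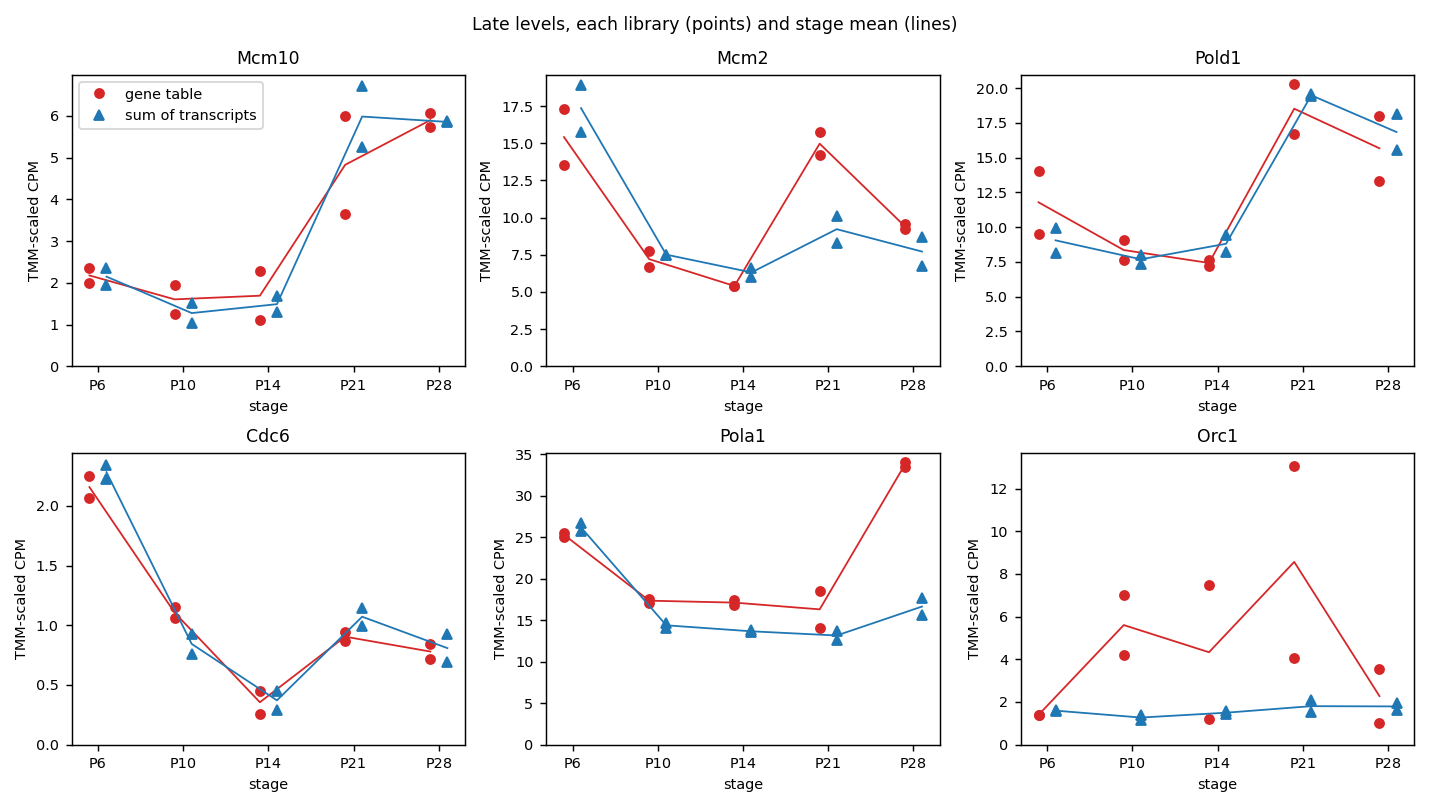
TMM-scaled CPM of 6 replication genes from P6 to P28 in each library (points) with the stage mean (lines), from the deposited gene table (red) and from sums of the deposited transcripts (blue). Mcm10, Pold1 and Cdc6 are higher at P21 than at P14 in both, Mcm2 and Pola1 have a larger late increase in the gene table, and Orc1 scatters in the gene table alone.

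Transcript make-up changed for a few genes. In 29 of the 36 the gene value stayed within 1.5 times the sum of its transcripts at every stage, and the other 7 were Mcm2, Orc1, Gins2, Pola1, Tyms, Exo1 and Chaf1b. Transcripts annotated as protein coding gave over 50% of the sum at every stage in 27 genes and all of it in 11. Chaf1b lost most of its coding share, with 12.0% coding at P28 and 8.20% at P21, against 89.8% at E11. Its coding transcripts had 0.131 and 0.116 CPM at P28, against 39.8 and 31.5 CPM at P0, so the CPM that were left came mostly from transcripts not annotated as coding. Tk1 was similar. Its coding transcripts made up 6.23% at P28, against 64.3% at E11, with 0.341 and 0.447 CPM at P28, against 36.4 and 29.7 CPM at P0. In Pold1 the coding share moved up and down, from a listed 0% at P4 to 86.0% at P14, with 54.3% at E11 and 0.495% at E12. Its coding transcripts were listed at 0 in both P4 libraries, against 44.7 and 40.6 CPM at P2, and had 10.9 and 9.34 CPM at P21, against 8.16 and 6.998 CPM at P14. The Pold1 changes given above are for the gene and for all its transcripts together. The coding share of Pole was lowest at P21, at 47.1%, against 83.8% at E11. These shares are estimates that divide reads among overlapping transcripts of one gene, and both Tk1 and Gins2 also overlap coding genes on the opposite strand.

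Other genes of the same processes, in lists chosen by function and with earlier results of these data known, fell less uniformly between birth and P6. Of 15 other origin and helicase genes 7 were called lower at P6 than at P0, of 21 other fork and polymerase subunits 13, and of 14 other nucleotide synthesis genes 5, against 7.83% of all genes, with none higher in any list, against 8.83% of all genes. The medians of the log2 changes were -0.97, -1.28 and -0.83 against -0.01 over all genes. Among the origin genes, Ticrr and Recql4, needed to fire origins, changed by -3.18 and -3.05, both called. The origin recognition subunits Orc5 and Orc4 were at 0.27 and 0.42, neither called. At the fork, Clspn, which links replication to the checkpoint, and Dscc1, of an alternative clamp loader, changed by -3.86 and -3.51, both called, and the small polymerase subunits Pold4 and Pole4 by -0.28 and -0.19, not called. In nucleotide synthesis, Shmt1 of the folate cycle was called at -2.39, and Ctps2 and Nme1 were not, at -0.07 and 0.33.

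Control and chromatin genes divided in the same way. Of 16 genes of E2F and S phase control 10 were called lower at P6 than at P0 and none higher, against 7.83% and 8.83% of all genes. E2f8 and E2f2 changed by -3.92 and -3.07, both called, and the pocket proteins Rb1 and Rbl2 were at 0.06 and 0.43, not called. Of 8 genes of replication-coupled chromatin 5 were lower, led by Uhrf1, which recruits the maintenance methyltransferase, at -4.92, and Asf1b, a histone chaperone, at -3.49. Rbbp4 and Asf1a were at -0.53 and -0.30, not called.

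All 12 genes of a mitosis list were called lower at P6 than at P0, against 7.83% of all genes, from -4.37 for Aurkb and -3.91 for Mki67 to -3.34 for Cdk1 and -3.09 for Birc5, with a median of -3.49. At P28 against P6 10 of the 12 were called lower, with a median of -4.49. In that window 14 of the 36 replication genes were called lower, with a median of -0.71. Over all genes 10.5% were called lower there, with a median of 0.04. The median mitosis gene stood at 0.284% of its highest stage at P28 and 6.30% at P6, and the median replication gene at 6.24% at P28 and 8.54% at P6. Rrm2, at -5.54, was the one replication gene whose late fall exceeded the median of the mitosis list. The difference between the lists is a description and was not tested.

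In the authors' deposited table of stage differences, 35 of the 36 genes are listed, Orc1 being the one not listed. The authors' deposited table puts 28 of these 35 in cluster 11, which holds 772 of the 12718 genes listed. The 28 are 3.63% of that cluster. It puts Mcm7, Rfc3 and Orc6 in cluster 13, Mcm6 and Rrm2 in cluster 9, Gins2 in cluster 12 and Pold1 in cluster 6. The sources used here do not say how the clusters were made.

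Some values carry an uncertainty of assignment. Of the 36 genes 15 overlap another gene of the annotation, 9 of them a coding gene on the opposite strand, and Cdt1 overlaps Gm20388 on its own strand. The libraries are directional per the labels, but the sources used here do not say whether counting used the strand. Mcm7 has the microRNA genes Mir25, Mir93 and Mir106b within it, and the table lists 2 Pcna pseudogenes that could share reads with Pcna.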

How the data were processed

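Polyadenylated RNA of 24 retina libraries was sequenced from directional libraries, per the labels. The authors deposited estimated counts for 45594 genes and 113468 transcripts (the tools named in the submitters' processing notes, without a role, are edgeR 3.13.9 and kallisto 0.42.4, with GRCm38.p5). Gene totals equal transcript totals, but single genes differ from their transcript sums, and the sources used here do not say how genes were summed. The deposited counts were rounded, filtered with filterByExpr (minimum count 10, 21858 genes kept), scaled by TMM and fitted in edgeR 4.0.16 (R 4.3.3) with all 24 libraries as 12 stages, leaving 12 residual degrees of freedom. Quasi-likelihood F tests gave 14 comparisons and 1 test across stages, with Benjamini-Hochberg adjustment. Standard errors are edgeR's. TPM were computed from the deposited transcript counts and transcript lengths. The test was checked on simulated data. The authors' deposited table of stage differences holds log2 fold changes and adjusted p-values, whose making the file headers do not give, and of it only the cluster numbers were used.

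Alternatives were DESeq2 1.42.0, other fold thresholds, scalings and filters, transcript sums, a fit of the compared stages only, leaving out each library and a replicate block. Replicate numbers did not pair the samples. The members and lists were chosen with earlier results of these data known. Genes given in full were the most and least negative of each role at P6 against P0 and those with the largest called changes in each comparison. The other genes singled out (Mcm3, Mcm4, Mcm7, Gmnn, Cdc45, Orc1, Tyms, Tk1) and the promoters printed were chosen after their values were seen. The values of 1 gene outside the 36 are not reported here.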

Additional observations from a re-analysis of the deposited data

How the results depend on the processing

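With no fold threshold the counts of replication genes grew, as did those of all genes (their share in brackets): at P0 against E11 32 were lower (27.8%), at P28 against P6 2 higher (24.2%) and 26 lower (24.6%), at E12 against E11 8 lower (13.3%), at E14 against E12 1 higher (16.3%), at E16 against E14 16 lower (7.14%), at P0 against E16 3 higher (10.7%) and 3 lower (2432 of 21858 genes), at P2 against P0 10 lower (6.91%), at P4 against P2 30 lower (18.5%), at P6 against P4 32 lower (4.67%), at P10 against P6 20 lower (12.7%), at P14 against P10 10 lower (8.59%), at P21 against P14 11 higher (13%) and at P28 against P21 2 lower (2.12%). Testing against a 2-fold change instead left 4 lower at P0 against E11 (1632 of all 21858 genes) and 0 higher at P28 against P6 (1446 of all genes). It left 0 lower at P0 against E16 (95 of all genes), 9 lower at P4 against P2 (411) and 10 lower at P6 against P4 (113). It left 2 lower at P10 against P6 (190) and 0 lower at P14 against P10 (11). At P21 against P14 it left 0 higher (149) and 0 lower (171), and at P28 against P21 0 higher (5). Scaling by library size alone left 5 lower at P0 against E11 (2237 of all 21858 genes). There it moved the median log2 change of all genes by 0.20, to 0.24, and 68.9% of all calls were then higher, against 4124 higher and 2964 lower calls with TMM. With no filter 1 was lower at E16 against E14 (547 of all 35172 genes) and 1 higher at P2 against P0 (881 of all genes). It also gave 1 higher at P10 against P6 (1117) and 1 lower at P28 against P21 (263). Fitting the compared stages only gave 1 higher at P2 against P0 (556 of 18821 genes) and 1 higher at P10 against P6 (1073 of 19106 genes). Transcript sums gave 0 lower at P0 against E16 (721 of 21781 genes) and 0 lower at P21 against P14 (1185). They gave 0 higher at P28 against P21 (35), and DESeq2 gave 0 lower at P0 against E16 (638 of 21858 genes). The median percent of the highest stage at P6 was 9.64% with library size alone and 9.87% with transcript sums, and at P28 6.52% and 7.40%. The cause of these shifts was not tested.

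Leaving out 1 library at a time gave 33 to 34 genes lower at P6 against P0, 6 to 15 at P0 against E11, 12 to 15 at P28 against P6, 0 to 1 at E12 against E11, 0 to 1 at P0 against E16 (0 without P0 replicate 1), 18 to 20 at P4 against P2, 17 to 20 at P6 against P4, 6 to 10 at P10 against P6 and 2 to 4 at P14 against P10. At P21 against P14 it gave 3 to 4 higher and 0 to 2 lower (0 without P21 replicate 1), at P28 against P21 0 to 1 higher (0 without P21 replicate 1), and 35 to 36 across stages. The median at P6 ran from 7.79% to 9.61%, that at P28 from 5.65% to 6.84%, and 26 to 33 genes were highest at E11. Ctps2 at P6 against P0 ran from -0.24 (without P6 replicate 2) to 0.10 (without P6 replicate 1), with 0.04 without P0 replicate 1, and Rrm2b from -0.00469 (without P0 replicate 1) to 0.76 (without P0 replicate 2). Both thus changed sign.

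Same-numbered libraries did not deviate together: over 66 pairs of stages the correlations ran from -0.0568 to 0.127. With replicate number as a block 34 genes were lower at P6 against P0 (1697 of all 21858 genes). In that fit 10 were lower at P0 against E11 (2935) and 14 at P28 against P6 (2284). Testing against a 2-fold change and fitting the compared stages only were not run for the test across stages, and the course medians were recomputed under scaling, transcript sums and left-out libraries only. The lowest count of a replication gene in any library was 5, so the lowest late values rest on few counts.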
